A study of Drosophila melanogaster with 3 samples.

Results

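The mitochondrial ribosomal protein genes of Drosophila melanogaster were examined for binding of Pipsqueak, a nuclear DNA-binding protein with a BTB domain. They were taken by symbol, as every protein-coding gene named mRpL or mRpS followed by a number, which gave 73 of the 13945 protein-coding genes on chromosome arms 2L, 2R, 3L, 3R, 4 and X. All 3 samples belong to a single group: chromatin of whole wandering third-instar larvae, males and females pooled and of unrecorded age, from a transgenic line that stably expresses psq with GFP fused to its C terminus. Sonication gave fragments of 200 to 800 bp, an anti-GFP antibody pulled down the fusion protein, and the samples are biological replicates 1, 2 and 3 of that line. There is no second condition, so nothing here is a change, and whole animals mix all tissues, so a gene bound in a few cells and one bound weakly in many cannot be told apart. The deposited lists are 9459 reproducible peaks (the optimal list) and, with background entries included, 30000 entries each for the pooled data and every replicate. A gene is called bound when the summit (the highest point of a peak) of an optimal entry lies inside the gene or at most 1 kb outside it. It is called bound at its own start when a summit lies within 500 bp of an annotated start of that gene.

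Mitochondria carry their own ribosomes, which translate the few proteins that mitochondrial DNA still encodes, all of them parts of the respiratory machinery. The RNA of these ribosomes comes from mitochondrial DNA, whereas their proteins are encoded by nuclear genes, translated in the cytosol and imported. The large subunit (mRpL) joins amino acids and the small subunit (mRpS) decodes the messenger. Many of the proteins have a counterpart in bacterial ribosomes, and others were added in the mitochondrial lineage. Pipsqueak belongs to a group of proteins known for binding GAGA-rich sequence and for acting with Polycomb and Trithorax proteins at developmental genes.

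Most summits at these genes lay in AT-rich sequence without the GAGA core, although mRpS21 and mRpL43, both among the strongest, had it. The windows below are shown because they carry strong binding directly at a start, or hold GAGAG. Each reaches 50 bp to both sides of the summit, on dm6 (genome release 6 from RefSeq), read 5′ to 3′ on the strand of the gene, and capitals mark GAGAG. The first 5 are among the strongest summits within 500 bp of the member's own start, and the last 2 hold GAGAG. The strong start summits of mRpL41, mRpL23 and mRpL43 are not printed, so the windows shown are no sample of how often GAGAG occurs.
mRpS23 (chr2L:13835406-13835506, minus strand): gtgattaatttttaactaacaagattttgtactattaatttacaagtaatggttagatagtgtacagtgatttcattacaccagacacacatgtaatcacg
mRpS10 (chr3R:15229480-15229580, plus strand): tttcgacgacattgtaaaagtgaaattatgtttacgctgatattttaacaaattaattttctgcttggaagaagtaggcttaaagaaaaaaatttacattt
mRpL24 (chr2L:4945439-4945539, minus strand): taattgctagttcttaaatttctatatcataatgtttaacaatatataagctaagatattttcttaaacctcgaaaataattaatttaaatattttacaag
mRpL20 (chr3L:13018077-13018177, minus strand): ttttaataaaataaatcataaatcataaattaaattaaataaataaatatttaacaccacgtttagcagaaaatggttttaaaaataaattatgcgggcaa
mRpS2 (chr2L:4850521-4850621, minus strand): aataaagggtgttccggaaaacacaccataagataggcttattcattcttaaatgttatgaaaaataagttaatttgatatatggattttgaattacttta
mRpS21 (chr3R:13382683-13382783, minus strand): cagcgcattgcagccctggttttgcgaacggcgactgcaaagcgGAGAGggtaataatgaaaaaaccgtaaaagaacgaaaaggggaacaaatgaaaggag
mRpL17 (chr3L:264427-264527, plus strand): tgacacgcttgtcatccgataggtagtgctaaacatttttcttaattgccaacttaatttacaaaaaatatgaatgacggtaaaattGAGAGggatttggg
In mRpS21 GAGAG lies at the middle of the window, next to the summit, and in mRpL17 it lies near the edge, away from the summit.

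Of the 73 members, 41 (56.2%) were bound and 35 (47.9%) were bound at their own start. Among all protein-coding genes 37.4% were bound and 27.5% were bound at their own start. Members are short, with a median span of 909 bp against 2166 bp for all genes, and a short gene offers less sequence to hold a summit. Among the 3845 genes with a span of 593 to 1464 bp, which takes in the middle 57 members, 23.2% were bound, against 32 (56.1%) of these members. Each replicate was also read on its own, by its 9459 strongest entries (its top list). Replicates 1, 2 and 3 had 45, 39 and 38 bound members, a mean of 55.7% ± 5.15 (SD, n = 3) against 37.3% ± 2.17 of all genes. At the own start they had 39, 32 and 33 members, a mean of 47.5% ± 5.19 (SD, n = 3) against 27.1% ± 1.90 of all genes. Members were thus above all genes in 3 of 3 replicates by more than the spread between replicates. These replicate shares were not split by divergent partner, which members have more often than all genes, as given below. No test was run on the list itself, since it was proposed with results of these data known.

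Most of this binding lay outside the transcribed part of the genes. A summit inside the span was found for 3 members (4.11%), against 17.1% of all genes. These were mRpL23, mRpL42 and mRpL43, and in each that summit lay in the 5′ untranslated region. The share of all genes is not matched for span, and members are shorter (median 909 bp against 2166 bp).

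Head-to-head promoters were the rule among these genes, and they held most of the binding. A divergent partner was counted when a protein-coding gene on the other strand starts upstream and within 1 kb, or when both genes overlap at their 5′ ends as mRpS14 and Naa15-16 do, and 57 members (78.1%) had one, against 35.1% of all genes. Of these 57, 32 (56.1%) were bound at their own start, and of the 16 members without a partner 3 (18.8%) were: mRpL10, mRpL19 and mRpL53. The same split was present among all genes, with 46.3% of those with a partner and 17.2% of those without one bound at their start. Members without a partner were thus close to the background of their class, and those with a partner stood somewhat above it. The 2 starts of a member and its partner were a median of 285 bp apart, as for all divergent pairs (288 bp). Binding at the own start was found for 7 of 18 members whose starts were at most 100 bp apart (mRpS14 included), 11 of 14 at 101 to 300 bp and 14 of 25 at 301 to 1000 bp. Among all divergent genes these classes gave 47.7%, 50% and 43.1%.

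**Figure D1:**
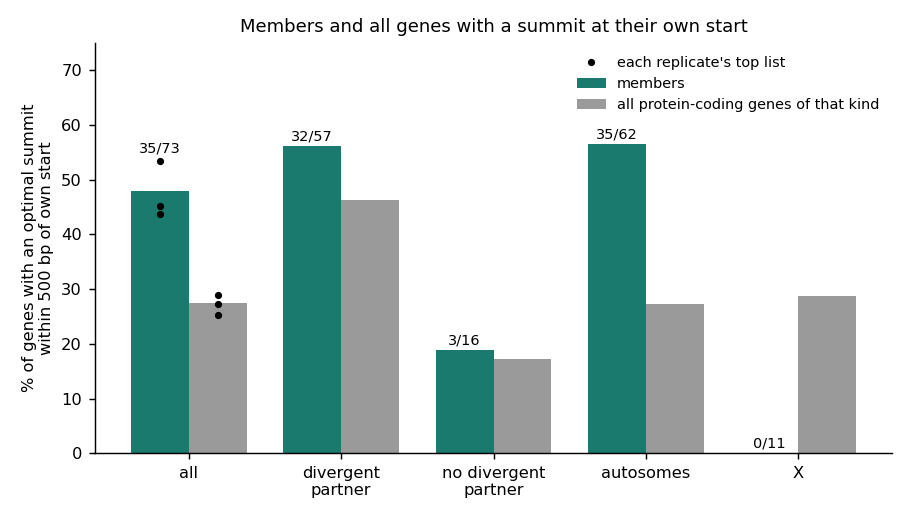
Share of genes with an optimal summit within 500 bp of their own start (y axis, %), for members (green) and all protein-coding genes of the same kind (grey), with the number of members over each bar. Dots on the bars for all members and all genes are the top lists of the 3 replicates. Members with a divergent partner reached 56.1% and those on X 0 of 11.

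The summits lay upstream of the members. Over the 35 members bound at their own start, the strongest summit there lay a median of 145 bp upstream of the nearest own start, with quartiles at -222.5 and -104.5 bp (negative is upstream). Over all genes bound at their own start the median was -124 bp and the quartiles -221 and -28 bp, so the upstream quartile was nearly equal and the downstream side was where they differed. It was upstream in 34 of 35 (97.1%), against 79.0% of the 3828 genes bound at their own start and 83.4% of those with a divergent partner. Between 50 and 300 bp upstream were 30 of them (85.7%), against 56.8% of all such genes and 63.2% of those with a partner. The exception was mRpL23, whose summit lay 66 bp downstream of a start. That of mRpL42 lay 65 bp before a later start and after the 5′ end of the gene, in its untranslated region.

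**Figure D2:**
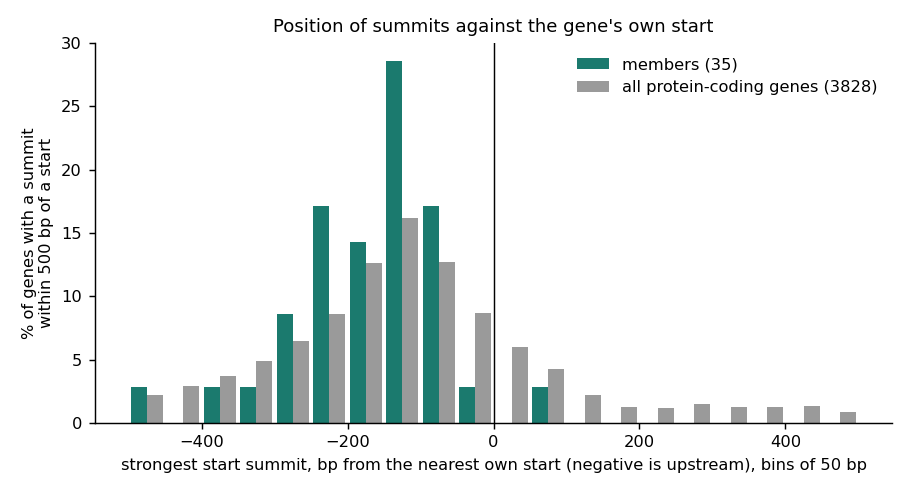
Position of the strongest start summit (x axis, bp from the nearest own start, negative upstream, bins of 50 bp) as a share of genes (y axis, %), for 35 members (green) and 3828 protein-coding genes (grey). The fullest bin for members, 150 to 100 bp upstream, holds 28.6% of them and 16.2% of all genes.

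Most of these summits lay close to the starts of both genes of a pair. In 30 of the 32 members with a partner, a summit within 500 bp of the member's start was also within 500 bp of the partner's start. The starts of a pair are a median of 285 bp apart, so this count largely reflects their spacing. Shares of all divergent genes were not computed for it or for the nearest start given below. In 22 of the 32 (68.8%) the strongest start summit lay between the 2 starts, against 64.1% of the 2120 divergent genes bound at their start whose starts do not overlap. For 23 of the 35 members the strongest summit was nearer to the start of the partner than to the member's own, and for 12 the own start was nearest, in mRpL53 jointly with that of CG33155. The lists therefore cannot assign this binding to the ribosomal protein gene rather than its neighbour.

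**Figure D3:**
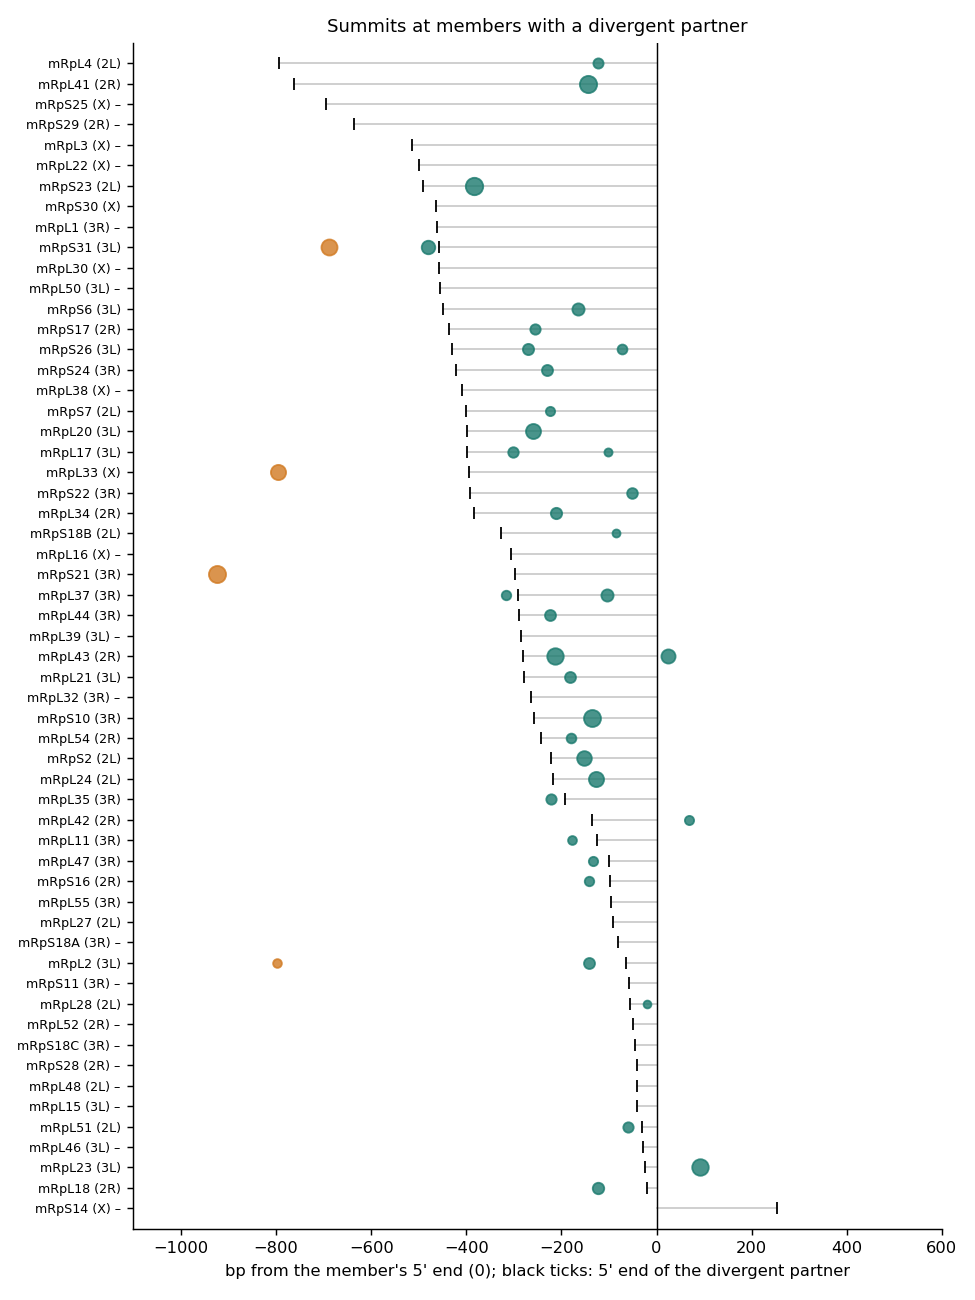
Summits at the 57 members with a divergent partner, 1 line per member with its arm in brackets and a dash for unbound members; the x axis is bp from the 5′ end of the member (0) and black ticks are the 5′ end of the partner. Dots are optimal summits, larger for a higher signal, green within 500 bp of the own start and orange farther away; summits far downstream are not drawn. Green dots gather between 50 and 300 bp upstream, and most lie between the ticks and 0.

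The strongest summits of the members covered a wide range of signal. Of the 41 bound members, 12 (29.3%) had a strongest summit over 1000 in the authors' signal, a value whose scale is not stated, against 20.1% of all bound genes. Among them, the strongest summits of mRpS21, mRpL33, mRpL13 and mRpS31 lay more than 500 bp from the member's own start. The weakest of these 12 was mRpL13 at 1197 and the next member was mRpS6 at 550. That no strongest summit lay between follows from how the interval was set, by these members' own values. It held 26.9% of all bound genes. Weaker summits of mRpL43 (998) and mRpS31 (821) also lay in it. The median signal percentile within the optimal list was 54.4 for members (SD over replicates 9.76, n = 3, top-list medians 62.1, 42.6 and 52.1) and 62.6 for all bound genes. At start summits, a rule that does not use the span, the medians were 54.4 for members and 57.3 for all genes. The upper quartile of the signal there was 685 for members and 735 for all genes, so no excess of strong summits was seen at the starts by this measure. Members were thus bound often, but by the median not especially strongly. The SD is that of the members' median and does not measure the difference, which was not tested. In each replicate the median rank of the members' strongest peaks was weaker than that of all bound genes, as given below. Those ranks take the strongest peak in the span or within 1 kb of it, so they depend on the span. They were not computed for start summits.

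The strongest summit at a member was that of mRpS23, a mitochondria-specific protein of the small subunit, with a signal of 3360 (rank 73 of the optimal list). It ranked 26, 108 and 147 in replicates 1, 2 and 3 and lay between the gene and its partner CenG1A, 384 bp upstream of mRpS23 and 108 bp from the partner's start. The peak at mRpL41, which makes a large subunit protein, had a signal of 3133 and ranked 27, 159 and 176, with its summit 145 bp upstream. Its partner CG8079 starts 762 bp away, so this summit is nearest to the mRpL41 start itself. The peak at mRpS10, whose bacterial counterpart sits in the head of the small subunit, had a signal of 2855 and ranked 51, 210 and 203. It lay almost midway between the starts of mRpS10 and Art3, an arginine methyltransferase gene, 135 and 122 bp from them. All these summits were in sequence between genes, and all 3 ranked highest in replicate 1.

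The peak of mRpL23, whose bacterial counterpart lies at the exit of the peptide tunnel, had a signal of 2388 and ranked 73, 319 and 330. That of mRpL43, a mitochondria-specific protein of the large subunit, reached 2328 and ranked 278, 243 and 187. A second summit of the same peak, with a signal of 998, lay 25 bp inside mRpL43. At mRpS31 the stronger summit (1956, ranks 897, 359 and 166) lay at -688 bp, in the 5′ untranslated region of the partner hzg. A weaker one of 821 at -481 bp is the one that counts as at the start. The replicates thus placed these peaks in different orders, with mRpL23 highest in replicate 1 and mRpL43 and mRpS31 highest in replicate 3.

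Below them came mRpL24 (1411, ranks 358, 810 and 729), which shares its promoter with the gene betaggt-I, mRpL20 (1364, ranks 299, 1008 and 843), which shares its own with Icmt, and mRpS2 (1198, ranks 350, 1378 and 1109), which shares its own with Mon1. Their summits lay 128, 260 and 152 bp upstream. The counterparts of L20 and L24 in bacteria act early in assembly of the large subunit. All 3 lay between the starts of the pair, and all were nearer to the partner, at 90, 139 and 70 bp. Over all 41 bound members the median rank was 3371 in replicate 1, 5602 in replicate 2 and 4728 in replicate 3, and 30 of them (73.2%) ranked best in replicate 1. Over all bound genes the medians were 2948, 4036.5 and 3747.5, and 61.2% ranked best there.

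**Figure D4:**
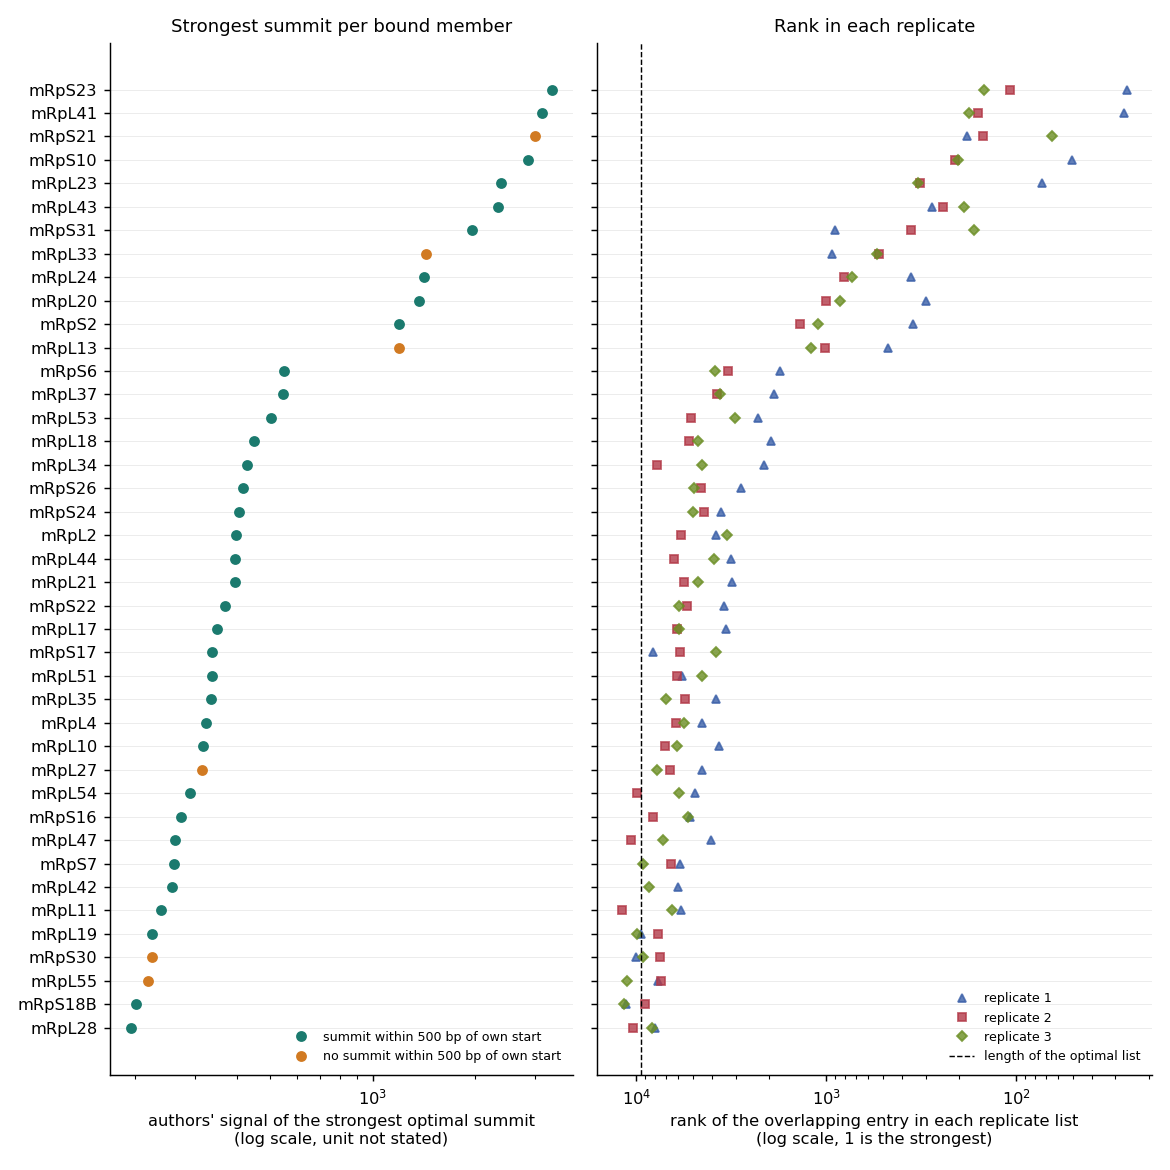
Left, the authors' signal of the strongest optimal summit (x axis, log scale, unit not stated) for the 41 bound members, green with and orange without a summit within 500 bp of the own start. Right, the rank of the overlapping entry in each replicate list (x axis, log scale, 1 is the strongest), with a dashed line at rank 9459. No entry of replicate 2 is drawn for mRpL42. The 12 strongest members run from 1197 up. The gap below them was set by the members' own values and holds 26.9% of all bound genes.

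For 6 of the bound members no summit lay near their own start, and the peak belonged by position to another gene. The summit counted for mRpS21 was strong (2998, ranks 182, 150 and 65) but lay at -924 bp, in an intron of Droj2, a DnaJ chaperone gene, and 89 bp from a Droj2 start. That for mRpL33 (1432, ranks 927, 527 and 538) lay at -795 bp, in the 5′ untranslated region of norpA, the phospholipase C of phototransduction. Both summits for mRpL13 were beyond its 3′ end, in an intron of CG10602, and the stronger (1197, ranks 474, 1014 and 1207) was 101 bp from a CG10602 start. These 3 carried strong peaks whose nearest start was that of a neighbour. The summit for mRpL27 (316, ranks 4535, 6620 and 7806) lay 95 bp from the start of RpL27A, a cytosolic ribosomal protein gene. That for mRpL55 (219, ranks 7721, 7444 and 11214) lay in an intron of cdi, and that for mRpS30 (224, ranks 10079, 7483 and 9186) beyond its 3′ end, 412 bp from a start of Rhp. All 3 were weak, and those of mRpL55 and mRpS30 each missed a top list. In mammals the counterpart of mRpS30 is found in the large subunit despite its name.

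The replicates supported most, but not all, of the bound members. The strongest peak was overlapped by an entry of every top list for 32 of the 41 (78.0%), against 82.4% of the 5222 bound genes, by 2 top lists for 8 and by 1 for mRpS18B. The optimal list comes from these same replicates and is not independent of them. The 5 weakest bound members were mRpS30 (224), mRpL55 (219), mRpS18B (201), mRpL28 (195) and, just above them, mRpL19 (225). Their entries ranked between 7444 (mRpL55 in replicate 2) and 11552 (mRpS18B in replicate 3), at the edge of the lists. The 3 of them at their own start were mRpS18B (ranks 11307, 9006 and 11552, partner Kua), mRpL28 (8000, 10383 and 8260) and mRpL19 (9435, 7669 and 9925, no partner), 86, 20 and 104 bp upstream. The remaining peaks without full support were those of mRpL54 (291), mRpL47 (263), mRpL42 (257) and mRpL11 (239), each absent from the top list of replicate 2 alone. For mRpL54, mRpL47 and mRpL11 replicate 2 held a weaker entry, at ranks 9916, 10635 and 11882, and for mRpL42 it held none. The partners of mRpL54, mRpL47, mRpL42 and mRpL11 are CG15653, CG8176, PIG-N and HtrA2, a mitochondrial protease gene.

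The other bound members had signals between 260 and 550 and support in every replicate. With their partners, from the strongest, they were mRpS6 with Cip4, mRpL37, mRpL53 with none, mRpL18 with Taz, mRpL34 with Dg, which encodes dystroglycan, mRpS26 with CG13698, mRpS24 with Apc2 and mRpL2 with FoxK. Next were mRpL44 with Snr1, a gene of the Brahma chromatin remodelling complex, mRpL21 with rept, mRpS22 with CG5003, mRpL17 with Tudor-SN, mRpS17 with Nop60B and mRpL51 with Uba4. The last were mRpL35 with Mitofilin, which shapes the inner mitochondrial membrane, mRpL4 with CG4440, mRpL10 with none, mRpS16 with cg and mRpS7 with Cdk1, the kinase that drives mitosis.

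Both subunits, told apart only by the L or S of the symbol, were bound at similar shares. At the own start 23 of 47 large subunit members (48.9%) and 12 of 26 small subunit members (46.2%) were bound. Proteins with a bacterial counterpart, counted by number as L1 to L36 and S2 to S21, gave 21 of 42 (50%), and the mitochondria-specific ones gave 14 of 31 (45.2%). These differences of under 5 percentage points were not tested, and no spread between replicates was computed for them.

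Counts differed between the arms. At the own start 9 of 12 members were bound on 2L, 9 of 12 on 2R, 8 of 17 on 3L and 9 of 21 on 3R. All genes of these arms gave 26.5%, 26.8%, 28.1% and 27.7%. On X the count was 0 of 11, against 28.7% of all X genes and 27.2% of all autosomal genes, while the autosomal members together reached 35 of 62 (56.5%). A divergent partner was present for 9 of the 11 X members, and among all X genes with such a partner 44.6% were bound at the start. The 11 were mRpL3, mRpL14, mRpL16, mRpL22, mRpL30, mRpL33, mRpL38, mRpL49, mRpS14, mRpS25 and mRpS30, and only mRpL33 and mRpS30 counted as bound, through the distant summits described above. The top lists gave 2, 0 and 0 X members at their own start in replicates 1, 2 and 3, those of replicate 1 being mRpL16 and mRpS25. No test of this difference was run, and 11 genes are few.

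Some of the X members ranked just below the last optimal entry. The optimal list is the strongest 9459 entries of the pooled list, with the same signals, and its lowest signal was 191. In the pooled list the entry at the start of mRpS25 ranked 9512 with a signal of 190, and that of mRpL16 ranked 9880 with 184. The weakest bound member, mRpL28, had a signal of 195 and rank 9263. Farther down, mRpL3 ranked 12792, mRpS30 13134 and mRpS14 13484, and mRpL49 and mRpL14 ranked 22522 and 25704. No pooled entry lay within 500 bp of the starts of mRpL22, mRpL30, mRpL33 and mRpL38. The X members thus ranged from just below that last entry to no entry at all.

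The 32 unbound members were, besides the X genes, mRpL52, mRpS28 and mRpS29 on 2R, mRpL48 on 2L, and 9 on 3L (mRpL12, mRpL15, mRpL36, mRpL39, mRpL46, mRpL50, mRpS5, mRpS34 and mRpS35). The 10 on 3R were mRpL1, mRpL9, mRpL32, mRpL40, mRpL45, mRpS9, mRpS11, mRpS18A, mRpS18C and mRpS33. They include mRpL12, whose bacterial counterpart forms the stalk that recruits translation factors, and mRpS29, the GTP-binding DAP3 of mammals. Of the 38 members with no optimal summit at the own start, 22 (57.9%) had a weaker entry of the pooled list there, against 29.7% of the 10117 genes without such a summit. Together 57 members (78.1%) had a pooled entry of any strength at the start, against 49.0% of all genes. Neither of these shares of genes is matched for a divergent partner, which members have more often. Also not far below the last optimal entry were mRpS29 (rank 9736), mRpL27 (10199) and mRpS11 (10562), and mRpS29 was in the top lists of replicates 1 and 2. No replicate list held an entry at the start of 9 of the 38, which were mRpL12, mRpL38, mRpL40, mRpL45, mRpL46, mRpS9, mRpS21, mRpS33 and mRpS35.

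At the summits, the members held GAGAG less often than other peaks, but also other purine-rich sequences of that length, with no test run. GAGAG lay within 50 bp of the strongest summit in 4 of 41 bound members (9.76%), mRpL17, mRpL43, mRpL53 and mRpS21, against 17% of all optimal summits and 16.7% of those within 500 bp of a protein-coding start. AGGGA was in 2.44% of the member windows against 11.4% of all optimal summits, GGAAG in 4.88% against 12.4% and GAAAG in 22.0% against 25.2%. The lower share is thus not particular to GAGAG. The member windows had a mean GC content of 32.2%, against 37.9% over all optimal summits and 38.2% over those near starts. TATAAA, which is AT-rich itself, was in 9 windows (22.0% against 17.3%). TATCGATA, the DNA replication-related element, and GGTCACACT, a core promoter sequence, were in 0 of the 41 windows, against 1.14% and 0.486% of all optimal summits. Motifs were read on either strand. None contains another, partial overlaps (AGGGA running on from GAGAG) are possible, and a match is a description of the letters only.

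Promoters were read from 250 bp before to 50 bp after the 5′ end of each gene. In this window GAGAG was in 12 members (16.4%), against 29.7% of all genes, TATCGATA in 15 (20.5% against 9.36%) and GGTCACACT in 8 (11.0% against 6.05%). The E-box CAGCTG, a palindrome known from Drosophila core promoters, stood apart with 40 members (54.8%) against 17.7% of all genes. It was in 22 of the 35 members bound at their own start (62.9%) and in 18 of the other 38 (47.4%). Among all genes it was in 21.9% of promoters bound at the start and 16.1% of the others, a tilt the same way that was not tested. The 38 include all 11 X members, of which 3 had it. The same split gave 20.0% and 21.1% of members for TATCGATA (all genes 14.4% and 7.43%). For GGTCACACT it gave 2.86% and 18.4% of members (all genes 9.33% and 4.8%), the opposite way. Of its 45 copies in members, 36 (80.0%) were within 50 bp of the 5′ end, against 51.2% of 2776 copies over all genes. The share was high with and without a partner, as 30 of 57 members with one (52.6%) and 10 of 16 without one (62.5%) had it, against 21.8% and 15.4% of all genes of each kind. The other motifs read in promoters were TATAAA (46.6% of members against 45.8% of all genes), CACGTG (6.85% of members against 4.20% of all genes), CCGGAA (4.11% against 6.78%), TGCGCA (8.22% against 6.96%), GGAAG (27.4% against 27.8%), AGGGA (21.9% against 24.1%) and GAAAG (39.7% against 49.6%).

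CAGCTG seldom lay directly at the summits, in members as in the whole optimal list. It lay within 50 bp of the strongest summit in 1 of 41 members (2.44%), mRpL28, against 3.94% of all optimal summits. In the 22 members bound at their start that hold it, the nearest copy was a median of 154 bp from the start summit, with a range of 38 to 318 bp, and over 50 bp away in 21. For 16 of them the summit lay farther upstream than that copy. The 120 bases directly before the 5′ end are shown for 2 members bound at their start and for mRpL14 on X, which was unbound, with CAGCTG in capitals (dm6, genome release 6 from RefSeq, 5′ to 3′ on the strand of the gene). These were chosen after the counts were seen.
mRpS2 (chr2L:4850420-4850539, minus strand): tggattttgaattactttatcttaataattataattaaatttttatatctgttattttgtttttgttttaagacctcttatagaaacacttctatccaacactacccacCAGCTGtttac
mRpL21 (chr3L:19255062-19255181, minus strand): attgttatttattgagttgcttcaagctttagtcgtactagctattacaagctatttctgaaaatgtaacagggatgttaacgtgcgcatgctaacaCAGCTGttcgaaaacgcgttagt
mRpL14 (chrX:2344650-2344769, minus strand): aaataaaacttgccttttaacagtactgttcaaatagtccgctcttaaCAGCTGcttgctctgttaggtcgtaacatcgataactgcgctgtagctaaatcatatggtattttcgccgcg
The motif lies closest to the 5′ end in mRpS2, farther from it in mRpL21 and farthest in mRpL14. Of the X members 3 had it in the promoter window.

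Other genes of mitochondrial gene expression were bound less often than the ribosomal protein genes, with no test between the lists. Of 39 such genes listed (translation factors, aminoacyl-tRNA synthetases, transcription and replication factors, and the ribosomal protein genes tko and bonsai, which carry other names), 38 were found. Of these, 14 (36.8%) were bound and 10 (26.3%) were bound at their own start, close to the 37.4% and 27.5% of all genes. A divergent partner was present for 18 of the 38 (47.4%), and 6 of the 18 (33.3%) were bound at their start. The strongest summits were at mTerf3, a transcription termination factor family gene (signal 4428, but 2096 bp from its own start, with other summits nearer), LeuRS-m (856), mtSSB, the single-strand DNA binding protein (709), and ArgRS-m (544). The ribosomal protein genes tko and bonsai were unbound, as were TFAM and PolrMT, which package and transcribe mitochondrial DNA. CAGCTG was in the promoter window of 19 of the 38 (50%), close to the 54.8% of the ribosomal protein genes.

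Genes for cytosolic ribosomal proteins, the other set of ribosomal proteins in the cell, differed in several of these measures. Of 92, 64 (69.6%) were bound at their own start, and the median start summit lay 53 bp upstream, against 145 bp for the mitochondrial set. On X 12 of 15 cytosolic genes were bound at their start, against 0 of 11 mitochondrial ones. CAGCTG was in 9 of the 92 promoter windows (9.78%). The median percentile of the strongest summit was 55.8, against 54.4 for the mitochondrial set.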

How the data were processed

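Pipsqueak-eGFP chromatin immunoprecipitation from whole larvae was read from peak lists on dm6. Per the text files that the authors deposited, the pooled and replicate lists are peaks and background entering the irreproducible discovery rate procedure, and the optimal list is its thresholded output. Aligner, peak caller and threshold: not given in the sources used here. The control experiment was not analysed here. The signal value of each entry is the authors' own, on an unstated scale. All 9459 optimal entries equal the 9459 strongest pooled entries in position, summit and signal, so values of these lists share a scale. Replicate lists were compared by rank. The lists hold no read counts, so depth is unknown and counting error could not be given. Lists of the same kinds on dm3 were not used.

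Summit positions are the entry start plus the deposited offset. Gene models were Ensembl release 115 (BDGP 6.54, dm6 coordinates) on the arms that the lists cover, without transposable elements, and sequence was RefSeq's genome release 6. Replicate lists were reduced to their 9459 strongest entries. A peak was supported with an overlap of at least 1 bp. Python 3.11.15, numpy 2.4.6, pandas 2.3.3 and matplotlib 3.10.9 were used, and the calls were checked on simulated data. With 1 group there was no test, and the main shares stand beside those of all protein-coding genes. The members and gene lists were chosen with earlier results of these data known. The partner of mRpL37 is not reported here. Every member is named; those given full values are the 12 strongest, the 5 weakest, those with no summit at their own start and those not supported in every replicate. The CAGCTG comparisons, the signal gap and the counts by arm were chosen after values were seen. Alternatives changed the margin, the distance from the start, the threshold, the overlap, the motif window and the replicates used.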

Additional observations from a re-analysis of the deposited data

How the results depend on the processing

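The number of bound members was 41 with 1 entry per set of overlapping entries and 38 (52.1%, all genes 33.8%) with a margin of 500 bp. With a margin of 0 bp it was 3, all with a divergent partner, and the mean over replicates was 2.33, since the summits lie outside the short spans. With the stronger 50% of the optimal entries, a list of fewer entries by construction, 23 members (31.5%, all genes 23.3%) were bound, 21 with a divergent partner were bound and 20 (27.4%, all genes 15.7%) were bound at their own start, and the median percentile was 91.3. It was 78.1 in the pooled list with background. With top lists of 50% of the length, 14 bound members were supported in every replicate and the mean over replicates was 22. Shares of all genes were not computed for these counts or for the 21 with a divergent partner. GAGAG lay at the strongest summit of 1 member within 25 bp (2.44%, all optimal summits 8.85%) and of 9 within 100 bp (22.0% against 31.6%). TATCGATA lay at that of 3 within 100 bp (7.32% against 2.48%).

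Leaving out 1 replicate at a time, with support asked of the other top lists while the optimal list still rests on all 3, gave 33 to 37 bound members, 28 to 33 bound at their own start, 30 to 34 bound with a divergent partner, a mean of 38.5 to 42 bound per replicate and a median percentile of 55.5 to 58.8. GAGAG stayed at 4 and TATCGATA at 0 members. Shares of all genes were not computed with a replicate left out, so these counts do not show whether members stayed above all genes. At the own start 31 members were bound within 250 bp and 37 within 1 kb, against 22.3% and 31.3% of all genes. CAGCTG was in 38 and 45 member promoters with windows starting 100 and 500 bp upstream (12% and 26.0% of all genes), settings chosen after seeing the data. No paired analysis was possible because the 3 replicates form 1 group.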
